A study of Mus musculus with 8 samples.

Results

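The 10 genes described are circadian clock genes measured in mouse heart: Arntl (also called Bmal1), Clock, Npas2, Per1, Per2, Cry2, Nr1d1, Dbp, Tef and Bhlhe40. They were taken by symbol from a table of estimated counts for 45706 gene identifiers, with symbols from GENCODE M21, and all 10 were found. All 10 also passed the filter on low counts, among 15289 genes that did.

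The clock of mammalian cells is a feedback loop of transcription. ARNTL pairs with CLOCK or NPAS2 and activates genes through E-boxes, among them the Per and Cry genes, whose proteins return to the nucleus and repress that pair. A second loop runs through the nuclear receptors NR1D1 (REV-ERBα) and ROR, which repress and activate Arntl respectively, and the outputs DBP and TEF activate genes through D-boxes, while BHLHE40 (DEC1) represses at E-boxes. In mouse heart these transcripts rise and fall over the day, Arntl at nearly the opposite time from Dbp and the Per genes.

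Hearts came from 8-week-old male mice of 3 genotypes. The knockout group (cKO, n = 4) was Elmsan1 fl/fl;aMHC-Cre+/-, in which the αMHC (Myh6) promoter drives Cre recombinase in cardiomyocytes, so that the other cells of the heart keep the gene. The floxed group (n = 2) was Elmsan1 fl/fl and carried no Cre, and the Cre group (n = 2) was aMHC-Cre+/- and carried no floxed allele, so cKO shared the floxed alleles with one control group and the transgene with the other. The Elmsan1 protein is part of MiDAC, a complex that removes acetyl groups from histones. The time of day at which the hearts were collected is not given in the sources used here, nor is whether hearts were pooled, and p values reflect the spread among these libraries alone.

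Each library summed to between 17509564 and 25833259 estimated counts. Levels are given in CPM, counts relative to the library total after trimmed mean (TMM) scaling, and a gene is said to be called where the adjusted p of edgeR's quasi-likelihood test was under 0.05. Elmsan1, counted over the whole gene in whole heart, was at 12 to 15.5 CPM in cKO and at 25.2 to 28.6 CPM in the controls. All 12 cardiomyocyte markers were detected in every library, and their summed level was 65205 to 72911 CPM in cKO, 73284 to 73764 in floxed and 67388 to 73229 in Cre. The summed level of 10 atrial markers was 4741 to 10377 CPM in cKO, 2971 to 2997 in floxed and 1782 to 3333 in Cre, and 8 of the 10 were called higher in cKO than in the mean of both control groups, where 25.6% of all genes tested were. That of 12 endothelial markers was 1516 to 1883, 1125 to 1153 and 1092 to 1237 CPM in the same order. Of these, 8 were called higher and 1 (Kdr) lower. That of 12 macrophage markers was 359.6 to 465.8, 235.7 to 273.5 and 247 to 294.9 CPM (8 of 12 called higher). That of 12 fibroblast markers was 2542 to 3352, 2238 to 2361 and 1783 to 2445 CPM (5 of 12). That of 10 smooth muscle and pericyte markers was 710.6 to 1113, 1070 to 1076 and 1148 to 1174 CPM (0 called higher, 2 lower). That of 6 red blood cell markers was 509.8 to 1348, 500.3 to 686 and 515 to 776.1 CPM (0 of 5 tested called). That of 8 fat markers was 650.8 to 1393 CPM in cKO against 322.1 to 586.5 CPM in the 4 controls (2 of 8 called higher, Fabp4 and Retn). Most of that sum was Fabp4, at 600.9 to 1162 CPM in cKO and 286.9 to 499.4 CPM in the controls. The brown fat gene Ucp1 was at 0 in floxed replicate 2 and between 0.214 and 79.8 CPM elsewhere. The atrial, endothelial, macrophage, fibroblast and fat sums were higher in each cKO heart than in any control. Ucp1, Cidea, Adipoq and Plin1 of the fat list did not follow: in cKO replicates 1 and 2 each was lower than in both Cre hearts. In cKO replicates 3 and 4 each was higher than in any control. The cardiomyocyte sums of cKO and Cre overlapped, with 5 of the 12 markers called higher and 4 lower. The part of these cell markers in the clock gene values below was not tested; in bulk RNA, fewer cells of a type and less RNA per cell cannot be told apart.

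Promoter sequence is shown for the 3 members in which one of the clock's own sequence elements was found. RefSeq windows (GRCm38.p6, 250 bases before to 50 after each start) matched 8 of the 10 genes (not Per2 or Bhlhe40) with 13 windows. They were searched on both strands for the E-box CACGTG, the D-box TTATGNAA, the cAMP response element TGACGTCA and the ROR element. The E-box occurred in 7.15% of all 32851 windows, the D-box in 3.38%, the cAMP response element in 1.79% and the ROR element in 0.384%. In the sequences, written 5′ to 3′ on the gene's strand, capitals mark the match, and no match overlapped another. For Arntl (chr7:113207261-113207560, plus strand) they mark a ROR element that begins 26 bases after the start, for Per1 (chr11:69098699-69098998, plus strand) an E-box that begins 166 bases before the start and a D-box 24 bases before it, and for Tef an E-box 127 bases before one start (chr15:81802423-81802722, plus strand) and 138 bases before the other (chr15:81811164-81811463, plus strand).
Arntl promoter, second window: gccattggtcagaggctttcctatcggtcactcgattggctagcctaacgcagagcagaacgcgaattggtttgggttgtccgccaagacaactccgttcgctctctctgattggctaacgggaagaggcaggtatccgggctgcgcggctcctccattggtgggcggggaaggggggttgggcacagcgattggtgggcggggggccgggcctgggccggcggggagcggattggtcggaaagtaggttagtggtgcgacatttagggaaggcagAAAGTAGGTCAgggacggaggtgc
Per1 promoter, first window: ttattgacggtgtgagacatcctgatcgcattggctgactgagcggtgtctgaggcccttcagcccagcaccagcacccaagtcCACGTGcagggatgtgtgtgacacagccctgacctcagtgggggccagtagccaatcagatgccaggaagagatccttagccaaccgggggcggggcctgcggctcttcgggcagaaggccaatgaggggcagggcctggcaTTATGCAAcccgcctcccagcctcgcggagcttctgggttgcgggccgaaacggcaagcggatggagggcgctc
Tef promoter, first window: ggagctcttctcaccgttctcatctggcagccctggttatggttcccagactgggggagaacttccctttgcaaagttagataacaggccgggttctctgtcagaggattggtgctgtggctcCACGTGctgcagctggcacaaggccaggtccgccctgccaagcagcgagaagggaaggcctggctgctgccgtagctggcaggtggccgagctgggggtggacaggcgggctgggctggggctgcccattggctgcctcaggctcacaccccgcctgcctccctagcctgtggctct
Tef promoter, second window: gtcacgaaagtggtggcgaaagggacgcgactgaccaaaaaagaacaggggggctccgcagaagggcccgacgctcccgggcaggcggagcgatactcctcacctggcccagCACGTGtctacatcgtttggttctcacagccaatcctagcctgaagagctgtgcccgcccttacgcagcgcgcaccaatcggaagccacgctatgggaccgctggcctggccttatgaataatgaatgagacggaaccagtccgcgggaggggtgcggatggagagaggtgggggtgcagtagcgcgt
Of the 8 members with a window, 2 held an E-box, 1 a D-box, 1 a ROR element and none the cAMP response element. Clock, Npas2, Cry2, Nr1d1 and Dbp had none of these letters in these windows, which says nothing of sites elsewhere in the genes. Among 12 other genes of the loop with a window, 4 held an E-box (Cry1, Bhlhe41, Ciart and Cipc), 2 a D-box (Per3 and Timeless) and 1 the cAMP response element (Hlf).

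The cKO hearts held less Clock and Bhlhe40 transcript than either control group. They also held less Arntl and Npas2, and more Per2, Dbp and Tef, than the Cre group and than the mean of both control groups. Per1, Cry2 and Nr1d1 passed the test in no comparison. In cKO against floxed, 2 of the 10 were called, both lower, where 42.9% of all genes tested were called (23.1% lower and 19.8% higher). In cKO against Cre 7 were called, 4 lower and 3 higher, where 42.4% of all genes were (22.8% lower and 19.6% higher). In cKO against the mean of both control groups the same 7 were called, where 52.1% of all genes were (26.5% lower and 25.6% higher). The members' median log2 difference was -0.43, -0.12 and -0.23 in these 3 comparisons, against 0.04, 0.03 and 0.04 over all genes tested. These comparisons share the cKO hearts, and the last uses both control groups, so they are not independent of each other. Without floxed replicate 1, 4 members were called against the mean, and without either Cre replicate 6 were called against floxed.

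**Figure D1:**
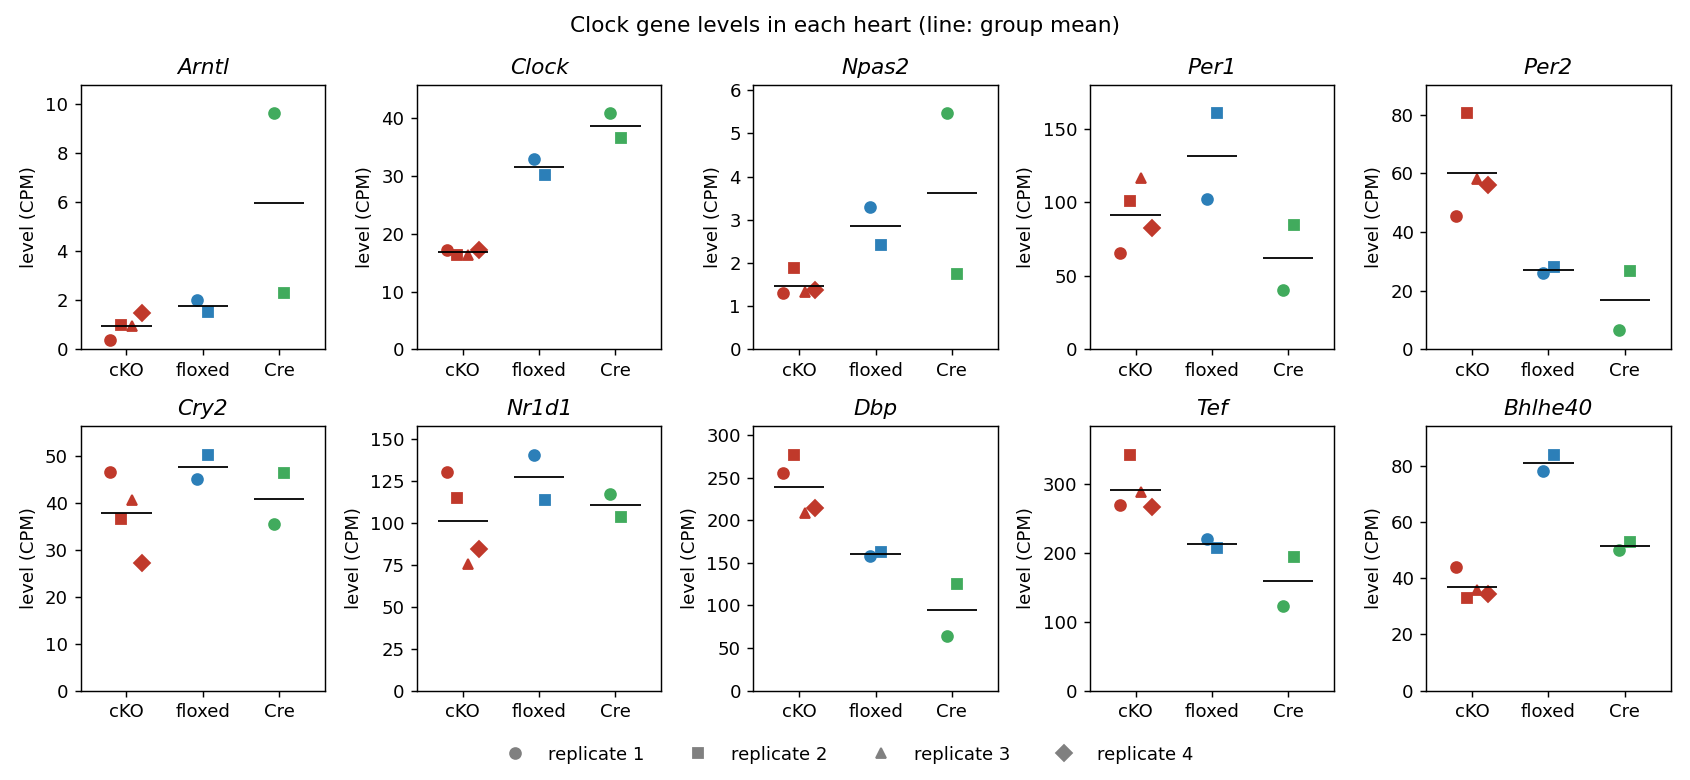
Level of each clock gene (CPM, linear axes from 0) in the 4 cKO, 2 floxed and 2 Cre hearts, with the replicate number as the symbol and the group mean as a line. Every cKO heart lies below every control for Arntl, Clock and Bhlhe40 and above every control for Per2, Dbp and Tef. Such separation is not particular to clock genes. Of the cardiomyocyte markers, not drawn, all but Tnnt2 separate likewise, some below (such as Ryr2) and some above (such as Myl2). The share of all genes tested that do so is not given here. Cre replicate 1 is the highest heart for Arntl (9.61 CPM) and the lowest for Dbp (63.7 CPM).

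Arntl (ENSMUSG00000055116, GRCm38 chromosome 7, 113207465 to 113314126, plus strand), the obligate partner of the activating pair, was the member with the widest range on the log2 scale. It was at 0.368, 0.988, 0.942 and 1.49 CPM in cKO replicates 1 to 4, at 2.01 and 1.52 CPM in floxed and at 9.61 and 2.30 CPM in Cre. All 4 cKO hearts lay below all 4 controls, with cKO replicate 4 and floxed replicate 2 almost touching, and Cre replicate 1 stood far above every other heart. The counts behind these levels were 7, 20, 22 and 39 in the knockout hearts, against 47 and 31 in the floxed and 253 and 46 in the Cre hearts, so that counting error alone was large in the cKO hearts. The level was 6.20-fold lower in cKO than in Cre (log2 -2.63, SE 0.55; edgeR's quasi-likelihood test, Benjamini-Hochberg adjusted p = 0.00478). Against floxed the difference was 1.83-fold and was not called (log2 -0.88, SE 0.61; adjusted p = 0.274 in the edgeR test). The difference from Cre rested on Cre replicate 1: without it the value was log2 -1.26 with an adjusted p of 0.11 in the edgeR test, and the value against the mean of both control groups went from -1.75 (adjusted p = 0.0158) to -1.07 (adjusted p = 0.0526). Without Cre replicate 2 the value against Cre was -3.35 (edgeR adjusted p = 0.0019).

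Clock (ENSMUSG00000029238, GRCm38 chromosome 5, 76209868 to 76304792, minus strand), the DNA-binding partner of ARNTL, was the most even member among the cKO hearts. It was at 17.3, 16.3, 16.3 and 17.1 CPM in cKO, at 32.9 and 30.2 CPM in floxed and at 40.8 and 36.5 CPM in Cre. The cKO hearts spanned 1 CPM, and the lowest control was far above the highest of them. Clock was 1.89-fold lower in cKO than in floxed (log2 -0.92, SE 0.10; edgeR adjusted p = 0.000121) and 2.31-fold lower than in Cre (log2 -1.21, SE 0.10; edgeR adjusted p = 9.96e-05). It was called lower in all 3 comparisons under each of 19 alternative settings. Correcting for the length and GC content of transcripts gave smaller values, log2 -0.43 against floxed (edgeR adjusted p = 0.0215) and -0.68 against Cre (edgeR adjusted p = 0.00224); with 9744 bases the longest Clock transcript was the longest among the members.

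Npas2 (ENSMUSG00000026077, GRCm38 chromosome 1, 39193731 to 39363236, plus strand), a paralogue of CLOCK that can take its place, was at 1.32, 1.88, 1.33 and 1.37 CPM in cKO, at 3.30 and 2.41 CPM in floxed and at 5.47 and 1.75 CPM in Cre. The cKO hearts lay below both floxed hearts, while cKO replicate 2 was above Cre replicate 2, so that cKO and Cre overlapped. Npas2 was called 2.48-fold lower in cKO than in Cre (log2 -1.31, SE 0.39; edgeR adjusted p = 0.019), and the value against floxed was log2 -0.96 (SE 0.40; edgeR adjusted p = 0.0726). Without Cre replicate 1 the value against Cre was log2 -0.25 (edgeR adjusted p = 0.653), while that against floxed was -0.97 and was called (edgeR adjusted p = 0.0216). Without Cre replicate 2 the value against Cre was -1.93 (edgeR adjusted p = 0.00346). The call against the mean of both control groups (log2 -1.13, edgeR adjusted p = 0.0145) was lost without Cre replicate 1 (-0.61, adjusted p = 0.0905) and without floxed replicate 1 (-1.01, adjusted p = 0.056).

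**Figure D2:**
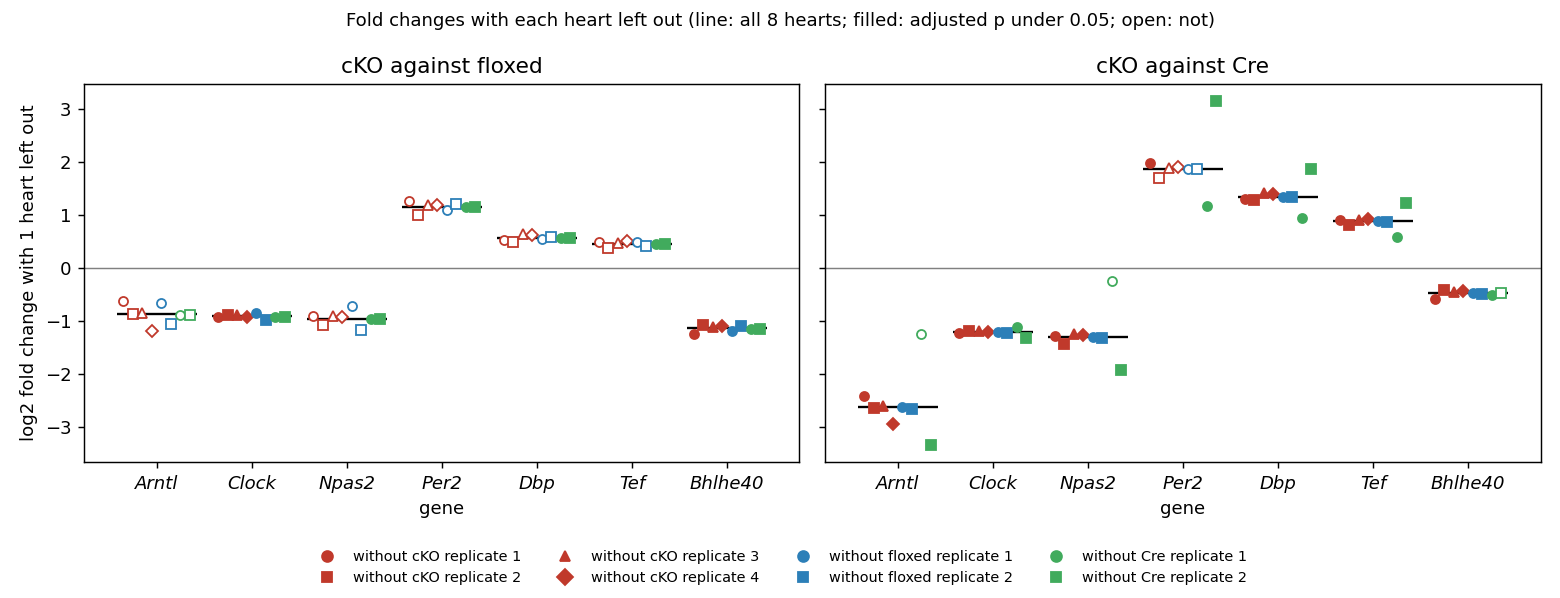
log2 fold change of the 7 clock genes that were called in any comparison, for cKO against floxed (left) and against Cre (right), with each heart left out in turn; colour and symbol name the heart left out, lines give the value over all 8 hearts, and filled points had an edgeR adjusted p under 0.05. Clock stays filled in both panels, while without Cre replicate 1 Arntl moves from -2.63 to -1.26 and Npas2 from -1.31 to -0.25 against Cre.

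Of the repressors, Per2 (ENSMUSG00000055866, GRCm38 chromosome 1, 91415982 to 91459324, minus strand), a subunit of the PER and CRY complex, was higher in cKO. It was at 45.6, 80.4, 58.2 and 55.9 CPM in cKO, at 25.9 and 28.1 CPM in floxed and at 6.61 and 26.8 CPM in Cre. All 4 cKO hearts lay above all controls, 3 of the 4 controls were within 3 CPM of each other, and Cre replicate 1 was well below them. Per2 was 3.64-fold higher in cKO than in Cre (log2 1.86, SE 0.55; edgeR adjusted p = 0.0367) and 2.85-fold higher than the mean of both control groups (log2 1.51, SE 0.42; edgeR adjusted p = 0.0238). Against floxed it was 2.23-fold higher without being called (log2 1.16, SE 0.53; edgeR adjusted p = 0.127). The calls were close to the threshold. That against Cre was lost, with the value between log2 1.70 and 1.91, without cKO replicate 2, 3 or 4 or either floxed replicate (highest edgeR adjusted p = 0.0818). That against the mean was lost without cKO replicate 2 or 4 or either floxed replicate (highest edgeR adjusted p = 0.0857). The size of the difference from Cre depended on which Cre heart was kept: it was log2 1.17 without Cre replicate 1 (edgeR adjusted p = 0.0153) and 3.15 without Cre replicate 2 (edgeR adjusted p = 0.00171), and that from the mean was 1.16 and 2.15. Without either Cre replicate the value against floxed was called, at log2 1.14 and 1.15 (edgeR adjusted p = 0.00279 and 0.00286). The Cre hearts enter that comparison only through the shared estimate of spread, the scaling and the filter.

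Per1 (ENSMUSG00000020893, GRCm38 chromosome 11, 69095217 to 69109960, plus strand), the other PER subunit measured as a member, was not called in any comparison. It was at 65.8, 101.3, 116.8 and 82.9 CPM in cKO, at 102.6 and 160.7 CPM in floxed and at 40.7 and 84.4 CPM in Cre. The cKO range crossed that of both control groups, floxed replicate 2 was the highest heart and Cre replicate 1 the lowest. The log2 difference was -0.52 from floxed (SE 0.34; edgeR adjusted p = 0.255) and 0.56 from Cre (SE 0.36; edgeR adjusted p = 0.248), opposite in sign, and 0.02 from their mean. The mean of both control groups is for Per1 a value between groups that themselves differed by log2 -1.08 (Cre relative to floxed, SE 0.40; unadjusted p = 0.0311, adjusted p = 1 in the edgeR test).

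Cry2 (ENSMUSG00000068742, GRCm38 chromosome 2, 92403646 to 92434043, minus strand), which encodes the cryptochrome partner of the PER proteins, was at 46.7, 36.7, 40.7 and 27.3 CPM in cKO, at 45.2 and 50.4 CPM in floxed and at 35.5 and 46.5 CPM in Cre. The groups overlapped, with cKO replicate 4 the lowest heart. Its log2 difference was -0.34 from floxed (SE 0.19; edgeR adjusted p = 0.174) and -0.12 from Cre (SE 0.19; edgeR adjusted p = 0.653), and the latter changed sign under some settings.

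Nr1d1 (ENSMUSG00000020889, GRCm38 chromosome 11, 98767932 to 98775333, minus strand), the nuclear receptor that represses Arntl, was at 130.3, 115, 75.6 and 84.7 CPM in cKO, at 141 and 114.1 CPM in floxed and at 117.7 and 103.8 CPM in Cre. In cKO replicates 3 and 4 it was below all controls and in replicates 1 and 2 it was among them. Its log2 difference was -0.33 from floxed (SE 0.21; edgeR adjusted p = 0.218) and -0.13 from Cre (SE 0.21; edgeR adjusted p = 0.643). On the opposite strand the exons of Thra, a thyroid hormone receptor gene, cover 263 of the 3077 exon bases of Nr1d1 (8.55%), and Thra itself was lower in cKO than in floxed (log2 -0.77, SE 0.16; edgeR adjusted p = 0.0035). The strand setting of the counts is not given in the sources used here, so the values of Nr1d1 are uncertain to that extent.

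Dbp and Tef, the D-box activators, had a higher level in each cKO heart than in any control. Dbp (ENSMUSG00000059824, GRCm38 chromosome 7, 45705088 to 45710203, plus strand) was at 255.4, 277.1, 208 and 213.8 CPM in cKO, at 158.4 and 163.1 CPM in floxed and at 63.7 and 124.6 CPM in Cre. The 3 groups did not overlap: cKO was highest, the floxed hearts were close together, and the Cre hearts were lowest and far apart. Dbp was 2.54-fold higher in cKO than in Cre (log2 1.34, SE 0.25; edgeR adjusted p = 0.00234) and 1.94-fold higher than the mean of both control groups (log2 0.96, SE 0.19; edgeR adjusted p = 0.00247). Against floxed it was 1.48-fold higher and not called (log2 0.57, SE 0.24; edgeR adjusted p = 0.0804), and without either Cre replicate it was called (log2 0.56 in both; edgeR adjusted p = 0.0121 and 0.0122). With the correction for length and GC content no comparison of Dbp was called: the values were log2 0.09 against floxed (edgeR adjusted p = 0.821), 0.73 against Cre (edgeR adjusted p = 0.087) and 0.41 against the mean (edgeR adjusted p = 0.177). Dbp had the shortest transcript of the members (1837 bases) and the highest GC content (61.6%). Exons of Sphk2, a sphingosine kinase gene on the opposite strand, cover 539 of the 2993 exon bases of Dbp (18%). Sphk2 was at 16.2 to 22.9 CPM in all 8 hearts and was not called in any comparison (log2 0.07 against floxed and -0.13 against Cre).

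Tef (ENSMUSG00000022389, GRCm38 chromosome 15, 81802421 to 81826863, plus strand) was at 269.7, 342.2, 287.2 and 266.6 CPM in cKO, at 219.7 and 206.2 CPM in floxed and at 122.7 and 194.3 CPM in Cre. The order of the groups was that of Dbp, with cKO replicate 2 highest and Cre replicate 1 lowest for both genes. Tef was 1.84-fold higher in cKO than in Cre (log2 0.88, SE 0.18; edgeR adjusted p = 0.00289) and 1.59-fold higher than the mean (log2 0.67, SE 0.14; edgeR adjusted p = 0.00254). Both calls held under all 19 alternative settings. Against floxed the value was log2 0.45 (SE 0.18; edgeR adjusted p = 0.0588), and it was called under 9 of the 19.

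Bhlhe40 (ENSMUSG00000030103, GRCm38 chromosome 6, 108660629 to 108666925, plus strand), the E-box repressor, was the member whose control groups lay furthest apart relative to the standard error. It was at 44.1, 33.1, 35.8 and 34.4 CPM in cKO, at 78.3 and 84 CPM in floxed and at 49.9 and 52.8 CPM in Cre. The 3 groups did not overlap, and the Cre hearts were closer to cKO than to floxed. Bhlhe40 was 2.20-fold lower in cKO than in floxed (log2 -1.14, SE 0.12; edgeR adjusted p = 0.000101), a call that held under all 19 alternative settings. Against Cre it was 1.39-fold lower (log2 -0.48, SE 0.12; edgeR adjusted p = 0.00945), and without Cre replicate 2 the value was -0.47 and not called (edgeR adjusted p = 0.06). Cre differed from floxed by log2 -0.66 (SE 0.14), with an unadjusted p of 0.000753 and an adjusted p of 0.263 in edgeR's quasi-likelihood test over all genes, and an adjusted p of 0.016 in DESeq2.

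**Figure D3:**
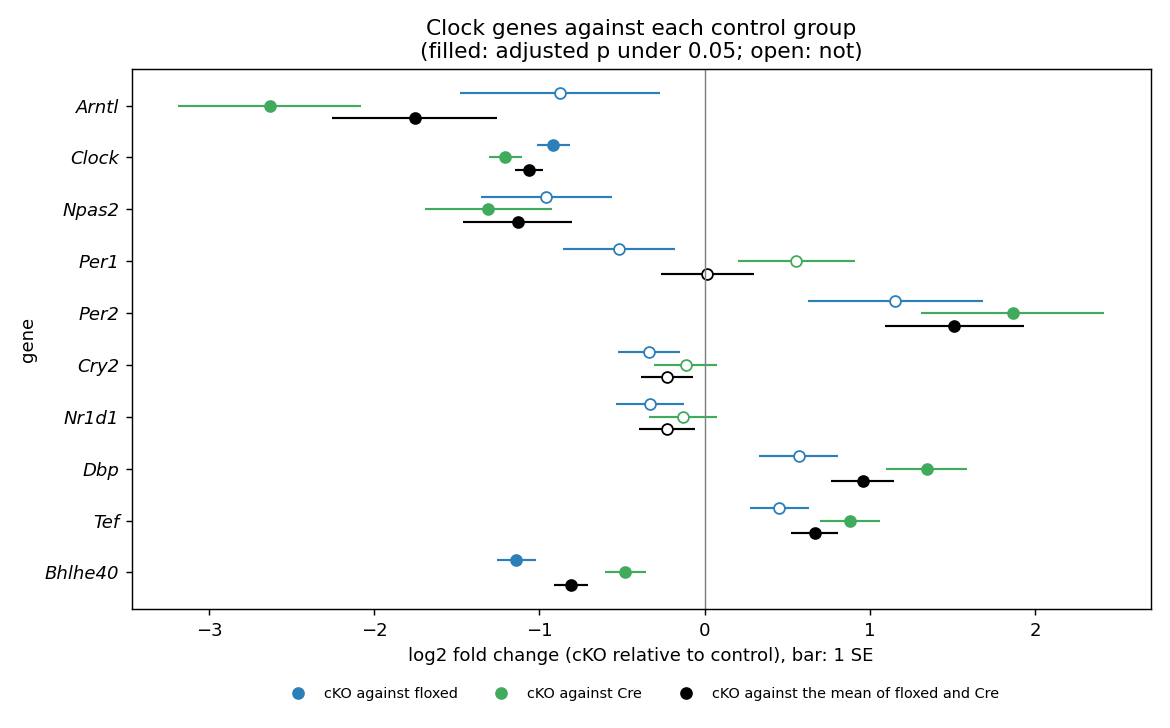
log2 fold change of each clock gene in cKO relative to floxed (blue), Cre (green) and the mean of both (black), with bars of 1 SE and filled points where the edgeR adjusted p was under 0.05. Clock and Bhlhe40 are filled against both control groups; Per1 lies at -0.52 against floxed and 0.56 against Cre.

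Bhlhe40 and Per1 also respond to acute stimuli in many cells, as immediate early genes do, and a list of 25 immediate early genes was measured beside them. Of these, 20 were called lower and 1 higher in cKO against floxed, 8 lower and 3 higher against Cre, and 10 lower in Cre against floxed. The share of the list called was 84%, 44% and 40% in this order, against 42.9%, 42.4% and 0.0981% of all genes tested. Against Cre it was thus close to that of all genes. Fos was at 262.6 and 287.4 CPM in floxed, at 41 and 15 CPM in Cre and at 4.32 to 8.49 CPM in cKO, and Egr1 at 469 and 460.5, at 86.7 and 31.3 and at 16.1 to 44.8 CPM (both were chosen for display after their values were seen). The floxed hearts were highest for both, as they were for Bhlhe40, and the part of this list's difference in Bhlhe40 and Per1 was not tested. Against the mean of both control groups, where 26.5% of all genes tested were called lower and 25.6% higher, 16 of the 25 were called lower and 1 higher. The 6 of the list with the smallest p were Fosb (log2 -4.01), Egr3 (-3.22), Egr2 (-2.73), Btg2 (-2.35), Ccn1 (-2.02) and Jun (-1.71).

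The control groups were compared directly, which is also the test of whether cKO differed from floxed by another amount than from Cre. By edgeR's quasi-likelihood test none of the 10 members was called after Benjamini-Hochberg adjustment. Of all genes 0.0981% were (15 of 15289), 0.00654% higher and 0.0916% lower in Cre. At an unadjusted p under 0.05, 5 members passed (Arntl, Clock, Per1, Dbp and Bhlhe40), among 526 of all genes. DESeq2 called 1 member (Bhlhe40) and limma voom none. The log2 values of Cre relative to floxed were 1.76 for Arntl (SE 0.66), 0.29 for Clock (SE 0.12), -0.77 for Dbp (SE 0.27), -0.71 for Per2 (SE 0.60) and -0.43 for Tef (SE 0.20). So no member called against one control group only was shown to differ between the control groups.

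Cre replicate 1 stood apart from the other 7 hearts in several members at once. Relative to the mean of all 8 hearts on the log2 scale it was at 2.6 for Arntl, 1.39 for Npas2 and 0.75 for Clock, the highest heart for each. It was at -2.33 for Per2, -1.4 for Dbp, -1.12 for Per1 and -0.9 for Tef, the lowest heart for each. Cre replicate 2 was at 0.55, -0.24, 0.59, -0.32, -0.43, -0.06 and -0.24 for the same genes, between Cre replicate 1 and the cKO hearts for all but Npas2 and Per1. The log2 ratio of Dbp to Arntl, which sets an output against an activator within one library and needs no scaling between libraries, was 9.44, 8.13, 7.79 and 7.17 in cKO replicates 1 to 4. It was 6.30 and 6.74 in floxed and 2.73 and 5.76 in Cre. That of Per2 to Arntl was 6.95, 6.35, 5.95 and 5.24 in cKO, against 3.68 and 4.20 for floxed and -0.54 and 3.54 for Cre. Both ratios were higher in each cKO heart than in any control, and the distance between the 2 Cre hearts was larger than that from Cre replicate 2 to the nearest cKO heart. In cKO replicate 1 the ratios rest on 7 counts of Arntl. The ratios were not corrected for transcript length and GC content, in which Dbp (1837 bases, 61.6%) and Arntl (3995 bases, 48.2%) differ.

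**Figure D4:**
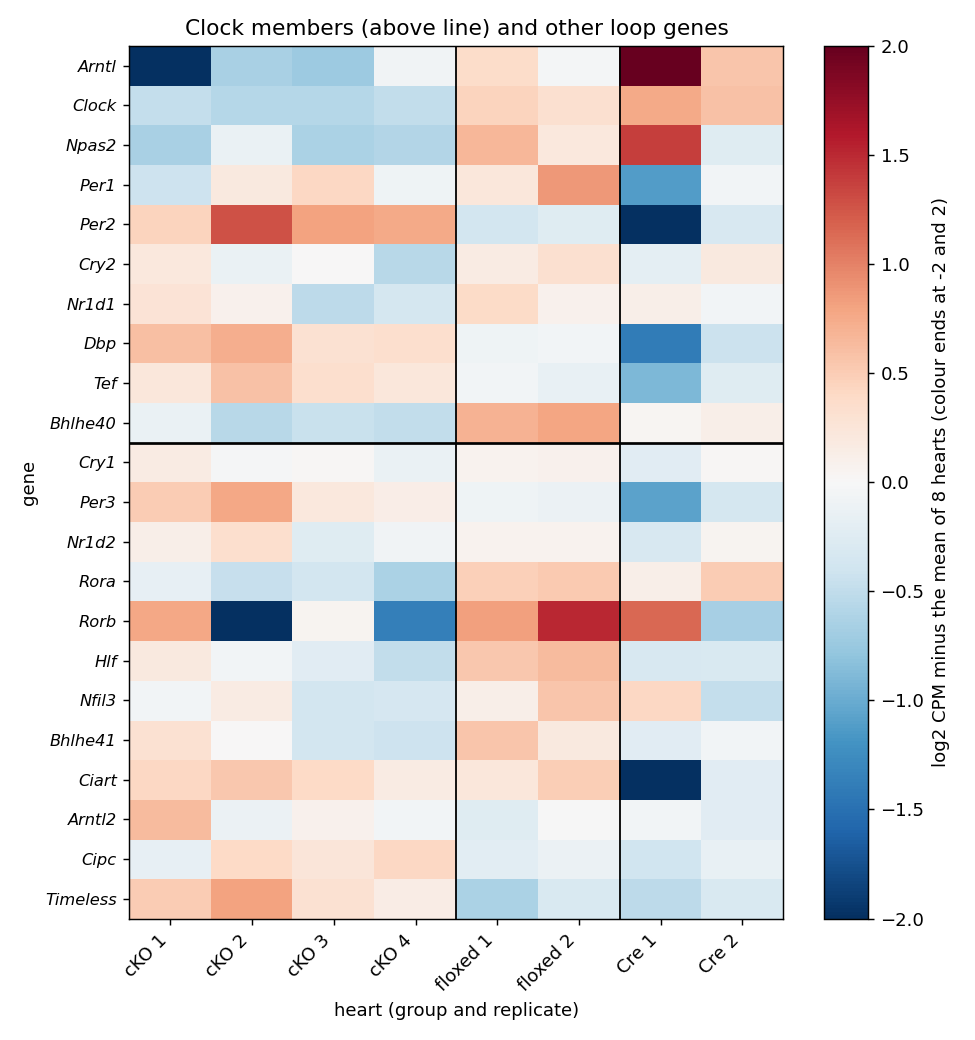
log2 CPM of the 10 clock genes (above the line) and 12 other loop genes in each heart, minus the mean of the 8 hearts; red is higher, blue is lower, and the colours end at -2 and 2. Cre replicate 1 is the reddest heart for Arntl (2.6) and the bluest for Per2 (-2.33), Dbp (-1.4) and Tef (-0.9), and Per3 and Ciart are also lowest there.

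How far the members moved together within groups was described by the correlation of their log2 CPM, taken as deviations from the 3 group means, over the 8 libraries. With Dbp, r was 0.90 for Tef, 0.89 for Per2, -0.66 for Clock, -0.71 for Npas2 and -0.78 for Arntl. Without the 2 Cre libraries, a setting chosen after seeing the data, the same values over 6 libraries were 0.60, 0.38, -0.13, 0.51 and -0.46. These 5 relations with Dbp thus rested largely on the distance between the 2 Cre hearts. That of Nr1d1 with Dbp was 0.2 with the Cre libraries and 0.82 without them. Of the other loop genes, Per3 (r = 0.94) and Nr1d2 (r = 0.85) stayed close to Dbp without the Cre libraries (0.97 for both). With Arntl, r was -0.87 for Cry2 and -0.77 for Bhlhe40, and -0.89 and -0.92 without the Cre libraries. Of the other loop genes, Cry1 (r = -0.98) and Rora (-0.97) had the lowest r with Arntl, at -0.98 and -0.96 without the Cre libraries. The r of Clock, Per1, Per2 and Tef with Arntl changed sign without them. Among 8100 named genes with a mean of at least 10 CPM, those most like Dbp were Lig3 (r = 0.992), Ube2b (0.984), Foxn3 (0.978), Slc30a5 (0.977) and Bcs1l (0.976). Those most like Arntl were Txndc5 (r = 0.995), Ltbp3 (0.978), Cbx6 (0.977), Sec11c (0.971) and Ecm1 (0.969). The libraries differed in depth and may have differed in preparation. The part of either in these values was not tested, and the highest of so many values from 8 libraries is high by selection.

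Compared per kilobase of the longest transcript, the members' mean levels spanned a wide range, from Dbp to Arntl or Npas2. In cKO the order was Dbp (130 CPM per kb), Tef (66.2), Nr1d1 (37.3), Per1 (19.6), Bhlhe40 (11.8), Per2 (10.3), Cry2 (9.52), Clock (1.72), Npas2 (0.348) and Arntl (0.237). In floxed Bhlhe40 was at 26.1 CPM per kb, close to Per1 at 28.2, Nr1d1 at 46.9 was close to Tef at 48.4, and Per2 at 4.62 was below Cry2 at 12. In Cre Arntl at 1.49 CPM per kb was above Npas2 at 0.852, through Cre replicate 1. The E-box activators Arntl, Npas2 and Clock were thus the least abundant members in each group, together with Per2 in Cre (2.86 CPM per kb against 3.96 for Clock).

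Among the 13 other genes of the loop, 1 was called higher and 2 lower in cKO against floxed, 4 higher and 2 lower against Cre, and 3 higher and 2 lower against the mean of both control groups. The share called was 23.1%, 46.2% and 38.5% in this order, against 42.9%, 42.4% and 52.1% of all genes tested. As a list they were thus called no more often than genes in general, or only slightly so against Cre. Per3, a PER paralogue, was at 84.2, 101.1, 68.3 and 64.7 CPM in cKO, at 55.4 and 54.5 in floxed and at 28.1 and 46.5 in Cre. It thus lay above all controls in all 4 cKO hearts, as Per2, Dbp and Tef did, with a log2 difference of 0.82 from the mean (SE 0.18; edgeR adjusted p = 0.00451). Rora, which encodes a ROR activator of Arntl, was at 15.5 to 21.4 CPM in cKO, at 33.5 and 34.9 in floxed and at 26 and 34 in Cre, below all controls in every cKO heart (log2 -0.81, SE 0.12; edgeR adjusted p = 0.000283). Timeless, a replication fork gene named after its fly relative, was at 15.9 to 25 CPM in cKO and at 9.25 to 11.6 in controls (log2 0.90, SE 0.15; edgeR adjusted p = 0.000566).

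Of the others of the loop, Cipc, Ciart, Hlf, Cry1 and Nr1d2 moved less or not in one direction. Rorb, near the floor, had a mean of 0.27 CPM in cKO, 0.79 in floxed and 0.48 in Cre. It was not called against the mean of both control groups. Cipc, an inhibitor of CLOCK, was called higher (log2 0.46, edgeR adjusted p = 0.0116), a call that was lost without floxed replicate 1 or Cre replicate 1, when 3 of the 13 were called. Without cKO replicate 1, 8 of the 13 were called. Ciart, a repressor of the ARNTL and CLOCK pair, was at 14.2, 15.5, 14.1 and 11.9 CPM in cKO, at 12.4 and 14.9 in floxed and at 2.66 and 9.12 in Cre, where Cre replicate 1 again stood apart. It was called in cKO against Cre (log2 1.27, SE 0.41; edgeR adjusted p = 0.0371) and not against floxed (log2 0.03). Hlf, the third D-box activator, did not follow Dbp and Tef: it was at 29.3 to 47.4 CPM in cKO, at 60.1 and 63.7 in floxed and at 33.1 and 33.4 in Cre. Its log2 difference was -0.71 from floxed (SE 0.16; edgeR adjusted p = 0.00418) and 0.19 from Cre (SE 0.16; edgeR adjusted p = 0.362). Cry1 (log2 -0.07 from floxed and 0.11 from Cre) and Nr1d2 (-0.02 and 0.17) were not called.

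Genes that act on clock proteins were mostly called in one direction where they were called. In cKO against the mean of both control groups 26.5% of all genes tested were called lower and 25.6% higher. Of 21 kinases and ubiquitin ligases, 14 were lower and 1 higher in that comparison, with a median log2 difference of -0.35 against 0.04 for all genes tested. The 6 with the smallest p were Prkaa2, an AMP-activated kinase subunit (log2 -2.08, SE 0.19), Gsk3b (-1.20, SE 0.10), Ube3a (-1.08, SE 0.11), Fbxw11 (-0.93, SE 0.08), the casein kinase gene Csnk1a1 (-0.87, SE 0.10) and Cul4a (-0.76, SE 0.10). With scaling by library size alone 9 of the 21 were called, 8 of them lower. Of 26 cofactors of the clock, 14 were lower and 1 higher (median -0.32). The share called, 57.7%, was near the 52.1% of all genes tested. The cofactors with the smallest p were Ppargc1a (log2 -1.36, SE 0.11), Ncor1, a corepressor of NR1D1 (-1.02, SE 0.10), Kat2b (-0.98, SE 0.09), Tbl1x (-0.66, SE 0.09), Hdac2 (-0.60, SE 0.08) and Dhx9 (1.99-fold), all lower.

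Of 30 genes listed as rhythmic in heart or in most tissues, 29 were tested; 11 were lower and 4 higher in cKO than the mean of both control groups (median -0.27). Hcn4 (log2 -2.46), Kcnd2 (-1.61), Pik3r1 (-1.15) and Kcnip2 (-0.80) were lower and Tspan4 (1.08) and Rbm3 (0.63) higher. Of 20 glucocorticoid response genes 7 were lower and 5 higher (median 0.22), among them the glucocorticoid receptor gene Nr3c1 (-0.91), the mineralocorticoid receptor gene Nr3c2 (-0.66), Klf9 (-1.73), Klf15 (-0.63) and Dusp1 (-1.52), all lower, and the metallothionein gene Mt1 (1.64), which was higher. The count of glucocorticoid genes depended on single hearts: it was 9 higher and 6 lower without cKO replicate 1, 2 higher and 7 lower without either of the floxed hearts, and 2 higher and 6 lower without Cre replicate 1. It was 3 higher and 9 lower without cKO replicate 3, and 3 higher and 6 lower without cKO replicate 4. Without floxed replicate 1, 2 of the rhythmic genes were higher and 12 lower. Some genes stand in more than one list. Against the same background of 52.1% called over all genes, the share called was 38.5% of the other loop genes, 71.4% of the kinases and ligases, 57.7% of the cofactors, 51.7% of the rhythmic genes tested, 60% of the glucocorticoid list and 68% of the immediate early list, beside 70% of the 10 members.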

How the data were processed

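RNA sequencing of 8 hearts gave 1 table of estimated counts per gene, deposited by the authors (expected counts: 71.95% to 76.34% of values above 0 in a library were whole within 1e-06). Reads were processed with STAR 2.5.1b and DESeq2 on mm10 (GRCm38), per the submitters' processing notes, which give no roles. How reads were counted, with which annotation and strand setting, is not given in the sources used here.

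Before testing, the values were rounded to whole numbers, filtered with filterByExpr (15289 of 45706 genes left) and TMM-scaled. All 8 libraries were fitted with 3 group means (5 residual degrees of freedom) in edgeR 4.0.16 (R 4.3.3, robust). Contrasts were tested with its quasi-likelihood test, with Benjamini-Hochberg adjustment over all genes tested, at 0.05. SE is the log2 fold change over the root of the F statistic. log2 CPM used a prior count of 0.5. Totals of 17509564 to 25833259 counts limit the precision of low genes such as Arntl. The test had been planned for whole counts, and rounding was added because the values had decimals.

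Symbols, lengths and exon overlaps came from GENCODE M21, promoters from RefSeq (GRCm38.p6). The members and lists were chosen with earlier results of these data known. All members were named; of each other list, the 6 with the smallest p against the mean of both control groups, and for the loop genes any (1 gene of that list is counted and not reported by name here); for likeness, the 5 genes with the highest r to Dbp and to Arntl. Alternatives were other scalings, DESeq2 1.42.0, limma 3.58.1 voom, other filters, no robust fit, a replicate block, only the groups compared, pooled controls, an offset for length and GC content (mgcv 1.9.3; 99.5% of tested genes had values) and leaving out each library. The procedures were tested on simulated data in which far fewer genes differed than were called here. That setting does not check the scaling or the share of false calls in these data. Figures were drawn with matplotlib 3.10.9.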

Additional observations from a re-analysis of the deposited data

Results flagged for a closer look

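Of the 10 members, Npas2 had 1 cKO heart far from the other 3. In cKO replicate 2 it was at 1.88 CPM, while the other cKO hearts held 1.32, 1.33 and 1.37 CPM. The gap to the nearest of them made up 0.901 of the group's range, above Dixon's 95% critical value for 4 samples. The level in cKO replicate 2 rests on 38 counts and the others on 25, 31 and 36. Chance gives about 1 such value in 20 groups, and 10 groups were examined. The floxed and Cre groups hold 2 hearts each and could not be examined in this way.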

How the results depend on the processing

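In 19 alternatives per comparison, Clock was called lower in cKO in all 3 comparisons, Bhlhe40 lower against floxed and the mean, and Tef higher against Cre and the mean. Members called against floxed numbered 4 instead of 2 with upper-quartile scaling, with library size alone, in DESeq2 and with no filter, and 6 when only the compared groups were fitted (each leaving 1 library out, 2 to 6). Against Cre leaving 1 library out gave 5 to 7 and against the mean 4 to 7, the lowest without floxed replicate 1; where that left 1 control, it was assumed to vary like the other groups. In Cre against floxed 1 member was called in DESeq2, with no filter, with the block and when only the compared groups were fitted, and none (0 to 0) with 1 library left out.

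Genes called in Cre against floxed numbered 62 in DESeq2, 23 in limma voom, 31 with no filter, 32 with only the compared groups and 7 to 18 with 1 library left out. With 1 library left out, cKO against floxed gave 3600 to 7037 (3600 and 3624 without floxed replicates 1 and 2), cKO against Cre 3929 to 6934 (3929 without Cre replicate 2) and cKO against the mean 6536 to 8209. Upper-quartile scaling and library size alone moved the median of all genes to 0.17 and 0.19 against floxed, 0.13 and 0.14 against Cre, and 0.16 and 0.17 against the mean. The split of higher and lower genes against the mean was 3909 and 4050, and 4873 and 3351, and 4753 and 2981, under them; against floxed it was 3031 and 3528, 3971 and 2787, and 3782 and 2403, and against Cre 2997 and 3487, 3657 and 2934, and 3474 and 2588.

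For the values that changed sign the cause was not tested. Cry2 in cKO against Cre was log2 0.005 with library size alone, and with 1 library left out -0.295 to 0.053 (above 0 without cKO replicate 4, 0.017, or Cre replicate 2). Per1 against the mean was -0.179 with the offset, -0.081 with pooled controls, and -0.205 to 0.302 with 1 library left out (below 0 without cKO replicate 2 or 3, floxed replicate 1 or Cre replicate 1). Npas2 in Cre against floxed was -0.715 without Cre replicate 1 and up to 0.96 with another library left out.

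The replicate numbers of the sample titles were not found to pair the hearts. Deviations of same-numbered libraries from their group means correlated at 0.134 and -0.106 (cKO and floxed) and -0.101 and -0.012 (cKO and Cre). For floxed and Cre both numbers give the same value, -0.051, because deviations in a group of 2 mirror each other. The library names number the floxed hearts differently, and pairing by library name was not checked. With the replicate block, 5 members were called against floxed, 4 against the mean and 1 in Cre against floxed (84 of all genes). Under the block Cry2 was 0.033 against Cre, Nr1d1 0.147 against Cre and 0.048 against the mean, and Per1 -0.091 against the mean. The block used the title numbers, of which 3 and 4 occur only in cKO. Under it Npas2 against Cre and Arntl, Npas2 and Per2 against the mean were not called (adjusted p = 0.113, 0.0609, 0.11 and 0.0793 in edgeR), nor were Per2 and Bhlhe40 against Cre (0.0835 and 0.0539). Per1, not called otherwise, was called under it at -0.654 against floxed, 0.472 against Cre and -1.125 in Cre against floxed (0.00559, 0.0286 and 0.00453), as were Dbp at 0.723 and Tef at 0.5 against floxed (0.0293 and 0.0476).

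With 7 to 39 counts in cKO, Arntl is limited by depth, as is Npas2 with 25 to 38.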
